A study of Mus musculus with 5 samples.

Results

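bktRNA1 (mmu-bktRNA1 in the table) is a 244 nt RNA from an intron of the mouse gene Cwf19l1. It is the single row of that name, 1 of the 43 RNAs that the authors listed from immunoprecipitates of the protein 15.5K. The row was chosen by its name with its high level already known. The names number the RNAs in the order of their mean level, so the first rank of bktRNA1 comes with its name. Its levels, length and score are therefore described here without a test, apart from a screen for outlying libraries. The RNAs came from Hepa1-6 cells, a mouse hepatoma line, that stably overexpress FLAG-tagged 15.5K. All 5 libraries carry this genotype and were precipitated with an anti-FLAG antibody, and they form 1 group, numbered 1 to 5 in their titles. Input RNA, a control antibody and untagged cells were not analysed here. No level below is thus relative to a background, and binding to overexpressed, tagged protein cannot be told apart from binding to the native form. Nothing in the labels ties the libraries to separate cultures, and differences among them may be technical. The table lists no mRNA levels, so the cell line was not checked against hepatocyte markers.

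The protein 15.5K, also called Snu13, binds kink turns, sharp bends between helices of an RNA, as in U4 snRNA and the box C/D snoRNAs. In a box C/D snoRNA, box C lies near the 5′ end and box D near the 3′ end, and the bases directly upstream of box D pair with a target RNA that is then methylated on a ribose. In backward kink-turn RNAs (bktRNAs) the order is turned round, with box D first. The study's authors have described bktRNA1 as a guide for ribose methylation of U12 snRNA, the RNA of the minor spliceosome that recognises the branch site of U12-type introns. H/ACA snoRNAs, a separate class, fold into hairpins joined by a hinge with box H, end a few bases after the letters ACA, and guide pseudouridine formation.

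The deposited sequence of bktRNA1 is shown whole because its parts differ in their overlap with an annotated snoRNA and in their complementarity to U12. Here and in the other sequences from the files T stands for U, and each is written 5′ to 3′. The capitals mark, in order, a stretch that is complementary to U12, box D (CTGA) and box C (RTGATG, where R is A or G). It lies at chr19:44113879-44114122 of mm10, minus strand.
bktRNA1: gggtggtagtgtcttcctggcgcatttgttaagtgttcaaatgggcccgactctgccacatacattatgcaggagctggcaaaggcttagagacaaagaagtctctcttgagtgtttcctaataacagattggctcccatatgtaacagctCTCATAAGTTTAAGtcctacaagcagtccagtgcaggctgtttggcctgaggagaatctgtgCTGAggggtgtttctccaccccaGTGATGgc

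A pair of other listed RNAs is set beside it with only box D and box C in capitals, bktRNA2 as the next most abundant and bktRNA8 as the one with the highest score. bktRNA2 lies at chr4:129717611-129717646 and bktRNA8 at chr16:5115971-5116017, both on the minus strand of mm10.
bktRNA2: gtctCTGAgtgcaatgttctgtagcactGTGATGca
bktRNA8: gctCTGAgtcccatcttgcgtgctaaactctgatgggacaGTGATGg

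In bktRNA1 box D occupied nt 214 to 217 and box C nt 237 to 242. The part before box D was 213 nt long, the part between the boxes 19 nt, and the part after box C 2 nt. Among the other 42 RNAs the part before box D was 2 to 6 nt, and it was 4 nt in 35 of them. The part after box C was not unusual, since 30 of the other 42 also had 2 nt there and the rest 1 to 9 nt. The 19 nt between the boxes lay within the range of the other RNAs, which ran from 9 to 135 nt with a median of 22 nt. The added length of bktRNA1 therefore lies upstream of box D. All 43 rows had CTGA and RTGATG at the deposited distances, so the presence of these boxes belongs to how the list was made.

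The hairpin that closes the kink turn of bktRNA1 had 6 base pairs, 5 of them G-C, around a loop of 6 nt. In every row the hairpin was read from directly after box D to 1 nt before the 6 letters of box C, so this placement was set beforehand. Capitals mark its paired bases in the stretch between the boxes.
between the boxes: GGGGTGtttctcCACCCCa

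Counting 3 hydrogen bonds per G-C and 2 per A-U pair gave 17, which equals the deposited score, as such a count did in 41 of the 43 rows. The score of bktRNA1 was exceeded by that of 1 of the other 42 RNAs, bktRNA8 in Ppl (periplakin) with 21, whose stem had 8 base pairs. It stood above those of bktRNA4 in Myo5b (16, a myosin gene) and bktRNA12 in D3Ertd751e (15), which shares its score with bktRNA39. The median score of the other RNAs was 11, with a range of 7 to 21. bktRNA1 was thus near the top of the list by score, whereas by length it was alone. The next longest RNAs were bktRNA29 in Paxbp1 with 151 nt, bktRNA25 in Dpysl2 with 100 nt and bktRNA34 in Tead3 with 85 nt, and the median of the other 42 was 38 nt.

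**Figure D1:**
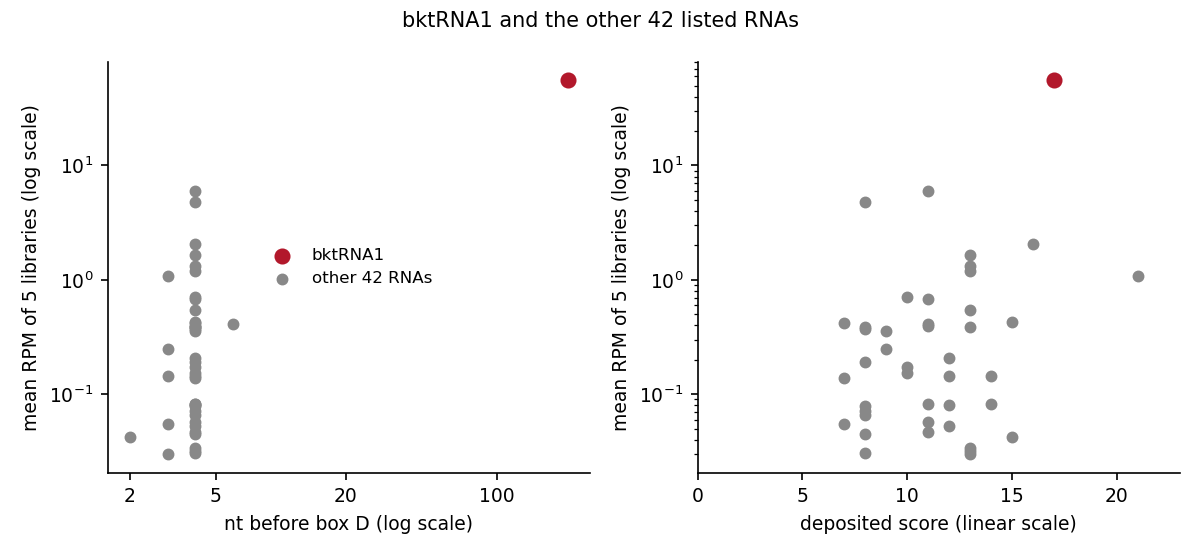
Mean RPM of the 5 libraries (vertical, log scale) against the nt before box D (left, log scale) and the deposited score (right) for bktRNA1 (red) and the other 42 listed RNAs (grey). bktRNA1 lies at 213 nt before box D, where the others lie at 2 to 6 nt, and at a score of 17, within the range of 7 to 21 of the others.

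Cwf19l1 (ENSMUSG00000025200.7) encodes a protein related to the yeast factor Cwf19, which is found with spliceosomes. The gene spans 44108637 to 44135876 on the minus strand of chromosome 19, between Chuk (44073335 to 44107480), which encodes a kinase of the NF-κB pathway, and Bloc1s2 (44139246 to 44146446), which encodes a subunit of a complex that builds lysosome-related organelles. Of its 8 annotated transcripts, 3 hold the host intron, at 44113794 to 44114523, and it is intron 11 of 13 in the transcript named in the table, which has 14 exons. The intron is 730 nt long, with 401 nt upstream of bktRNA1 and 85 nt downstream. None of the 67 exons annotated over the 8 transcripts overlaps bktRNA1.

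Within the intron, the RNA lies over Gm24336 (ENSMUSG00000077391.1), annotated as a snoRNA of 146 nt at 44113979 to 44114124 on the same strand. The first 144 nt of bktRNA1 were identical to the last 144 nt of that transcript. They make up 59.0% of bktRNA1 and 98.6% of Gm24336. The remaining 100 nt, at 44113879 to 44113978, lie past the annotated 3′ end of Gm24336. This 3′ part holds box D, box C, the hairpin between them and the U12-complementary stretch. The table gives 1 value per library for the whole RNA, so reads from a shorter transcript that ends with Gm24336 and reads from the full 244 nt cannot be told apart, and the levels below may belong to either.

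**Figure D2:**
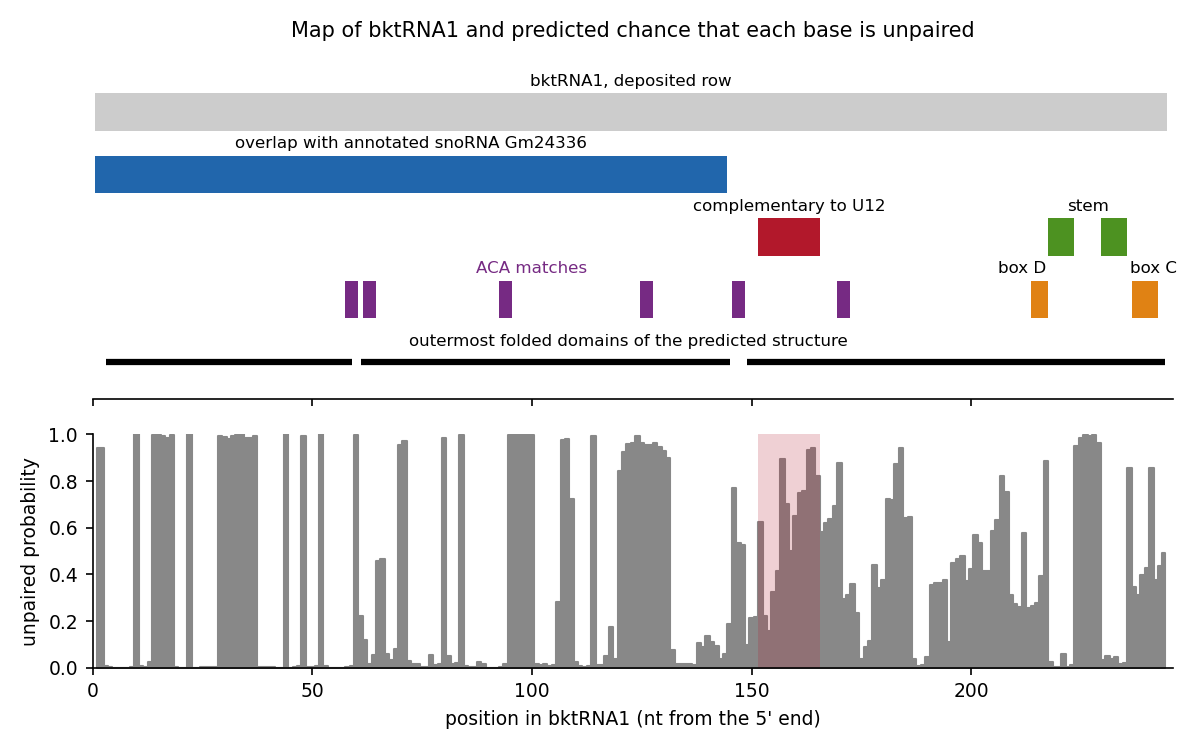
Features of bktRNA1 by position (horizontal, nt from the 5′ end), with each base's predicted probability of being unpaired below (vertical, 0 to 1). The overlap with Gm24336 covers nt 1 to 144, and the U12-complementary stretch at nt 152 to 165 and the stem between the boxes lie past it.

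Letters known from H/ACA snoRNAs were looked for on the strand of the RNA. The letters ACA occurred 6 times, 4 within the Gm24336 overlap and 2 past it. The fifth match, at nt 146 to 148, began 2 nt after the annotated end of Gm24336 and was followed by 3 nt before the U12-complementary stretch. Box H (ANANNA) matched 4 times, all within the overlap. The stricter form AGANNA matched once, at nt 91 to 96. The letters TGAG, which in H/ACA RNAs of Cajal bodies form the CAB box, occurred at nt 109 to 112, at 199 to 202 and at 215 to 218, where the last overlaps box D by 3 letters. These short motifs are common. ANANNA occurred in 33.3% of the other 42 RNAs, which are shorter, and in 88.4% of 32851 promoter windows of the same length of 244 nt, read on 1 strand. ACA occurred in 42.9% of the other RNAs and in 93.2% of the windows, and TGAG in 54.8% and 67.6%. AGANNA occurred in 7.14% of the other RNAs and in 64.2% of the windows.

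Of the letters that define the backward order, CTGA was in 69.7% of the same windows and RTGATG in 10.1%. CTGA occurred at a second place in bktRNA1, nt 198 to 201, with 12 nt between it and box D. The longer box C form RTGATGA had no exact match in bktRNA1, while it had one in 27 of the other 42 RNAs (64.3%) and in 2.56% of the windows. With 1 mismatch allowed it matched at nt 211 to 217, over box D, and at nt 237 to 243, over box C. Box C thus lacks the last letter of the longer form.

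The U12-complementary stretch is the feature of bktRNA1 that the table's columns do not show. Nt 152 to 165, at chr19:44113958-44113971, were complementary without interruption to nt 5 to 18 of Rnu12, the mouse U12 snRNA gene (ENSMUSG00000065176.1). Both sequences are shown with the 14 pairing bases in capitals. The first is nt 145 to 174 of bktRNA1, which begin at the annotated end of Gm24336, at chr19:44113949-44113978 on the minus strand. The second is the first 30 nt of U12 at chr15:83149644-83149673 on the plus strand, as GENCODE M21 gives them. The RefSeq gene starts 1 nt later and is 150 nt long, so that the same bases are nt 4 to 17 there.
bktRNA1: aacagctCTCATAAGTTTAAGtcctacaag
U12: atgcCTTAAACTTATGAGtaaggaaaataa

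The search covered 3885 annotated transcripts of snRNA, snoRNA, scaRNA, rRNA, ribozyme and other small RNA genes. A stretch of 14 nt was the longest found, and it occurred in 2 of them, Rnu12 and Gm25703 (ENSMUSG00000065057.1, chromosome 2), an annotated snRNA gene of the same length that differs from Rnu12 at 7 of 151 positions and has the same first 30 nt. Another 2 transcripts had 13 nt, 4 had 12 nt, and 41.8% had 7 nt. Of the other named spliceosomal RNAs, U1 (Rnu1a1) had 9 nt, U11 (Rnu11), its counterpart in the minor spliceosome, had 8 nt, and U2 (Rnu2-10), U5 (Rnu5g) and U6 (Rnu6) had 7 nt each. The regulatory RNA 7SK (Rn7sk) had 9 nt and U7 (Rnu7), which acts in histone mRNA processing, had 7 nt. The longest match of bktRNA1 was with U12 and Gm25703, closely followed by the 13 nt matches with Gm22023 and Gm27804. How long a match such a search yields by chance was not computed. These counts describe sequence only, since pairing in cells was not measured.

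**Figure D3:**
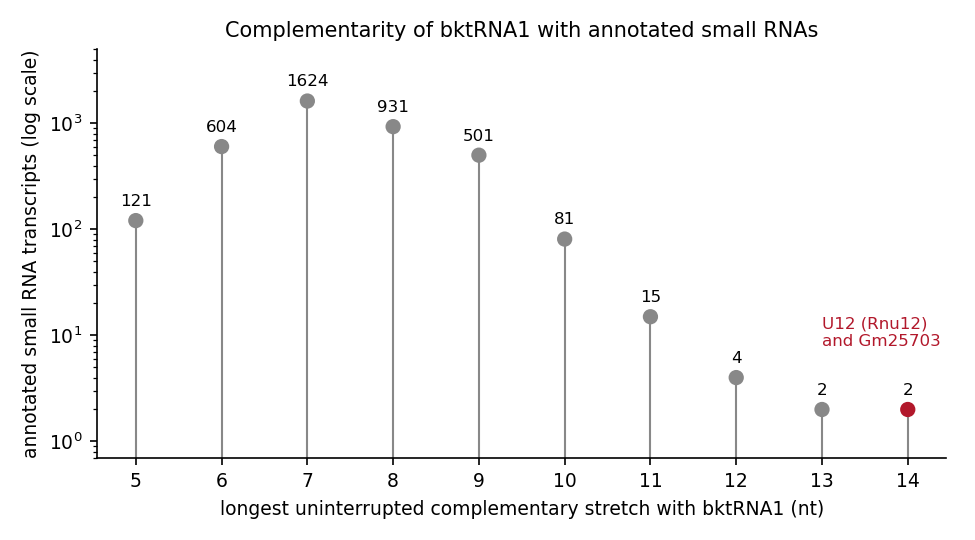
Number of annotated small RNA transcripts (vertical, log scale, 3885 in all) by the length of their longest uninterrupted stretch complementary to bktRNA1 (horizontal, nt). Most transcripts lie at 6 to 9 nt, and Rnu12 and Gm25703 lie at 14 nt (red).

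None of the other 42 listed RNAs held the 14 letters, nor did any of the 32851 promoter windows of the same length as bktRNA1. Any given 14 letters are rare in such sequences, so this absence does not set the stretch apart. The longest stretch complementary to U12 was not computed for the windows. In the other 42 RNAs it ran from 4 to 7 nt with a median of 5 nt. Most of them are much shorter than bktRNA1, which leaves fewer places for a match. Among the longest, bktRNA29 (151 nt) had 6 nt, and bktRNA25 (100 nt) and bktRNA34 (85 nt) had 7 nt each, where the 100 nt of bktRNA1 past Gm24336 held the 14 nt. When G-U pairs were allowed too, the stretch in bktRNA1 stayed at 14 nt and those in the other RNAs ran from 6 to 11 nt.

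The stretch does not adjoin box D. It ended 32 nt before the first CTGA and 48 nt before the box D of the table. It is poor in G and C (28.6%, against 48.8% over the whole RNA). A pairing of the 14 nt with U12 had a predicted energy of -16.2 kcal/mol, and no energy was computed for the matches with other RNAs.

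A secondary structure was predicted from the sequence alone, with no probing data. The most stable fold of bktRNA1 had -81.6 kcal/mol, or -0.334 kcal/mol per nt. The other 42 RNAs ranged from -0.370 to -0.00714 kcal/mol per nt with a median of -0.213, and 3 of them lay below bktRNA1. Energy per nt can vary with length, and all of them are shorter. Among the longest, bktRNA29 had -0.261, bktRNA25 -0.295 and bktRNA34 -0.324 kcal/mol per nt. The 100 nt of bktRNA1 past Gm24336, folded apart, had -0.295. The fold of the whole bktRNA1 split into 3 outermost domains. They ran from nt 3 to 59, from nt 61 to 145 and from nt 149 to 244, holding 19, 29 and 26 base pairs. The first and second domain together nearly span the Gm24336 overlap, with nt 60 between them. All 4 box H matches lay inside the second domain, and none lay between the first and the second. The ACA at nt 146 to 148 lay unpaired between the second and the third domain in this fold. The unpaired probabilities of its letters were 0.77, 0.54 and 0.53, so it was only partly open. Whether the RNA folds as an H/ACA snoRNA was not tested. The third domain holds the U12-complementary stretch and both boxes.

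All 6 pairs of the hairpin between the boxes were in the predicted fold, with a mean pairing probability of 0.928. The U12-complementary stretch was mostly open in it, with 10 of its 14 nt unpaired. The mean unpaired probability over all 14 nt was 0.622. It was 0.388 over the whole RNA, 0.348 over the Gm24336 overlap and 0.446 over the 100 nt past it. Nt 153 to 156 of the stretch were less open, at 0.221, 0.156, 0.327 and 0.416. Box D and box C had mean unpaired probabilities of 0.456 and 0.453. Kink turns contain non-Watson-Crick G-A pairs, which this prediction does not model.

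The level of bktRNA1 was 46.6, 55.4, 65.0, 70.9 and 40.4 RPM (reads scaled to a common library size) in libraries 1 to 5. Library 4 was the highest and library 5 the lowest, 1.75 times apart. The mean was 55.7 RPM ± 12.6 (SD, n = 5). The other 42 RNAs added up to 23.9, 24.7, 32.2, 24.7 and 21.8 RPM in the same libraries, so bktRNA1 alone exceeded their sum in each library. The ratio of bktRNA1 to that sum ran from 1.86 in library 5 to 2.87 in library 4, with a mean of 2.19 ± 0.407 (SD, n = 5).

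The libraries hold about 34200000, 36300000, 31700000, 30700000 and 17400000 reads if the smallest step between low values is 1 read, which held within 0.05 steps for 80.0% of the 130 values above 0. By library that share ran from 67.9% in library 2 to 93.8% in library 5, and the step was chosen from these same values. On this step reading the lowest value above 0 stood for 2 reads in each library. bktRNA1 then rested on 1595, 2013, 2062, 2178 and 702 reads. Exact Poisson intervals at 95% were 44.3 to 48.9 RPM in library 1, 53.1 to 57.9 in library 2, 62.2 to 67.9 in library 3, 67.9 to 73.9 in library 4 and 37.5 to 43.5 in library 5. They cover counting error only, since reads can be copies of 1 molecule. In the order of levels, library 4, then 3, 2, 1 and 5, neighbouring intervals did not overlap. Those of libraries 3 and 4 lay closest, at 67.85 and 67.92 RPM, and this narrow gap depends on the step chosen. The spread between libraries, an SD of 12.6 RPM, is thus the error to set beside this level, and not the narrower counting interval of 1 library.

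**Figure D4:**
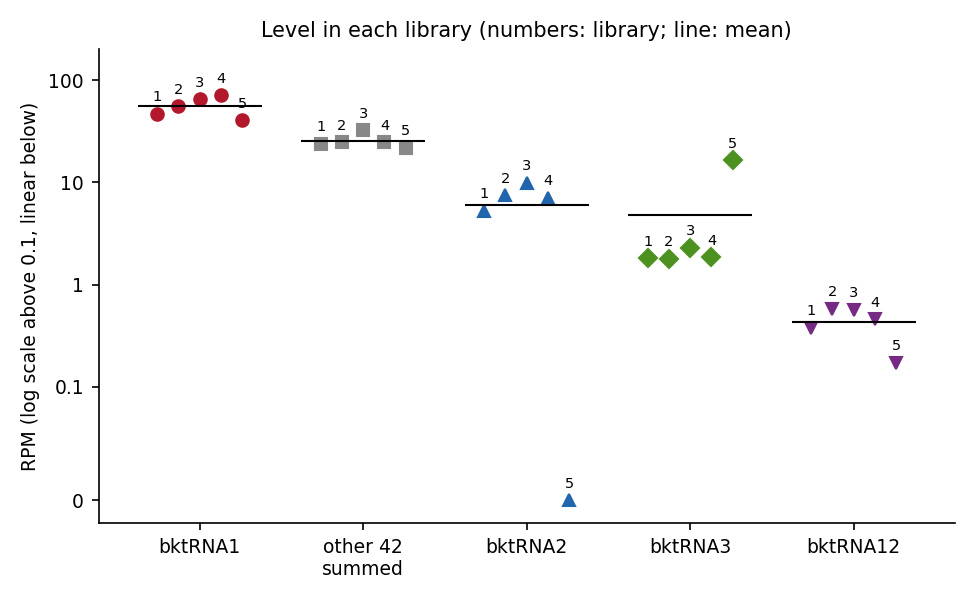
RPM (vertical, log scale above 0.1 and linear below) of bktRNA1, of the other 42 RNAs summed, and of bktRNA2, bktRNA3 and bktRNA12, with the library number at each point and the mean of the 5 libraries as a line. bktRNA1 lies between 40.4 and 70.9 RPM, above the sum of the other RNAs in each library, and bktRNA2 is at 0 in library 5.

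bktRNA2, in Khdrbs1 (an RNA-binding protein gene), had 5.29, 7.47, 9.86 and 7.04 RPM in libraries 1 to 4 and was listed at 0 in library 5. It was the next RNA after bktRNA1 in the first 4 libraries, by ratios of 8.81, 7.42, 6.59 and 10.1. In library 5 the next was bktRNA3, in Impa2 (an inositol monophosphatase gene), with 16.4 RPM, and the ratio was 2.47. The mean of bktRNA1 was 9.38 times that of bktRNA2, with 5.93 RPM. The lowest bktRNA1 value, 40.4 RPM, stood above the 16.4 RPM of bktRNA3, which no further RNA in the table exceeded in any library. Then followed bktRNA4, bktRNA5 in Trrap (a cofactor of histone acetyltransferases) and bktRNA6 in Smco4, with means of 2.06, 1.64 and 1.31 RPM. Library 5 stood apart in these RNAs: bktRNA4, bktRNA5 and bktRNA8 were also listed at 0 there, and it listed 16 RNAs above 0, against 25 to 31 in the other libraries. Without it the means were 59.5 RPM for bktRNA1, 7.42 for bktRNA2, 1.93 for bktRNA3, 2.57 for bktRNA4, 2.05 for bktRNA5 and 1.48 for bktRNA6.

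If reads come from fragments along an RNA, a longer RNA gives more of them, and if each read is a whole RNA it does not. Which holds here was not tested, so levels are also given per length. Per 1000 nt of the RNA, bktRNA1 had a mean of 228 RPM ± 51.5 (SD, n = 5), from 166 in library 5 to 290 in library 4. On this scale bktRNA2 came next with a mean of 165 RPM, and the median of the other 42 was 4.78 RPM. By library, bktRNA1 had 191, 227, 266, 290 and 166 RPM per 1000 nt and bktRNA2 had 147, 208, 274, 195 and 0. The groups of values overlapped, and in library 3 bktRNA2 was the higher of the pair. In library 5 bktRNA3 was also higher than bktRNA1, with 241 RPM per 1000 nt. The first rank of bktRNA1 in every library therefore holds for RPM and not for RPM per length, on which it held in libraries 1, 2 and 4.

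Between libraries, bktRNA1 had a coefficient of variation of 22.6%, against a median of 138% for the other RNAs. The only listed RNA with a lower one was bktRNA15 in Swap70, with 15.0%. The mean RPM of the other RNAs had a median of 0.183, where 1 read stood for 0.0276 to 0.0576 RPM by the step reading. Counts of a few reads vary widely by counting alone, so the median coefficient is not a like measure for bktRNA1. The order of the coefficients also depends on library 5. Without it bktRNA1 had 18.0%, the median of the others was 117%, and 4 RNAs had a lower one, bktRNA3, bktRNA8, bktRNA11 and bktRNA15. It was above 0 in each of the 5 libraries, as were bktRNA3, bktRNA12, bktRNA15 and bktRNA16 in Alpk1, a kinase gene. Each RNA was divided by its own mean to compare profiles among these RNAs. That of bktRNA12 was most like that of bktRNA1, with a mean absolute difference of 0.216 over the 5 libraries. bktRNA15 followed with 0.263 and bktRNA16 with 0.365, while bktRNA3 had 1.07. Over all listed RNAs, which include those at 0 in some library, 8 profiles were closer to bktRNA1 than that of bktRNA16, with bktRNA12 and bktRNA15 still the closest. bktRNA12 had 0.380, 0.579, 0.567, 0.455 and 0.173 RPM in libraries 1 to 5, and like bktRNA1 it was lowest in library 5. This is not particular to the pair, since bktRNA2, bktRNA4, bktRNA5 and bktRNA8 were listed at 0 there, while bktRNA3 and bktRNA15 were highest there. The values of bktRNA12 stand for few reads by the step reading, so the likeness of its profile is open to counting error.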

How the data were processed

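Small RNA libraries were made from RNA that an anti-FLAG antibody recovered from lysate, after removal of ribosomal RNA, per the labels' protocols. The submitters' processing notes name cutadapt 2.8, STAR and bedtools with mm10. What each did, and the rule for calling and counting an RNA, is not stated in these notes. The headers of the library columns name no unit. Their values were read as RPM because they add up to the deposited column headed groupReadRpm. The deposited score has no stated definition. Deposited starts count from 0 and are given here from 1.

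Python 3.11.15 with pandas 2.3.3 read the deposited table. Gene models and small RNA sequences came from GENCODE M21, and promoter windows from RefSeq on GRCm38.p6, the same assembly as mm10. Structures were predicted with ViennaRNA 2.7.2 at 37 °C. Complementary stretches are uninterrupted Watson-Crick runs, and that search and the stem reading were tested on simulated sequences. Poisson intervals used scipy 1.17.1. No filter on low values was used in the main results. No groups were tested against each other, since there is 1 group and bktRNA1 was chosen with its level known. The only rule applied to the levels was a screen of 5 quantities for a library far from the rest. The members, lists and settings were chosen with earlier results of these data known. Other RNAs were named by rule: the 5 next by mean RPM, the 3 next longest, the 3 with the highest scores (a tie for the third place went to the more abundant RNA), and those above 0 in every library, ranked by profile. The U12 search followed from the known role of bktRNA1.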

Additional observations from a re-analysis of the deposited data

Results flagged for a closer look

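Of 5 quantities examined over the 5 libraries, 1 had a value far from the rest. The summed level of the other 42 RNAs was 32.2 RPM in library 3, while libraries 1, 2, 4 and 5 lay between 21.8 and 24.7 RPM. Chance flags about 1 in 20 such sets. The level of bktRNA1, its share of the listed RPM and its ratios to the next RNA and to the other 42 RNAs had no library flagged by this screen. The ratio to the next RNA was still 2.47 in library 5, where bktRNA3 was next. In libraries 1 to 4 it was 6.59 to 10.1, with bktRNA2 next. A screen of 5 values can miss such a difference.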

How the results depend on the processing

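The listed RNAs are numbered by mean RPM, so the first rank of bktRNA1 comes with its name. bktRNA1 kept that rank without each library in turn, by medians, and by mean RPM per length. Per length it was not first in libraries 3 and 5 taken singly. Its mean was 51.9 to 59.5 RPM without 1 library. Its share of the listed RPM, 68.3% on average, was 66.8% to 69.1% without 1 library, 69.0% among the 27 RNAs with a mean of at least 0.1 RPM, and 89.8% when only the 5 RNAs above 0 in every library were counted, a setting that removes bktRNA2. The ratio to the next RNA, 9.38, was 8.17 with 1 RPM added to both means, 7.88 with medians, and 8.02 to 9.99 without 1 library. Exact matches to CTGA and RTGATGA numbered 2, and 4 with 1 mismatch allowed in box C. The predicted energy was -79.7 kcal/mol when the parts were folded apart and -76.0 kcal/mol without energy terms for dangling ends, and the cause was not tested. The G-U setting for U12 was chosen after the data were seen, and it and the G-U setting for the stem, 6 base pairs in each case, changed neither length. No paired analysis was possible because there is 1 group of libraries. The other RNAs had lower RPM than bktRNA1 in each library, and so rest on fewer reads. In library 5 1 read stood for about 0.0576 RPM by the step reading. bktRNA2, with a mean of 7.42 RPM without that library, was listed at 0 there. Whether depth accounts for the values listed at 0 was not tested.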
